A study of Mus musculus with 6 samples.

Results

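CHH methylation, the methylation of cytosines followed by no G at either of the next positions (H is any base but G), was examined in regions that touch copies of RLTR31D_MM. RLTR31D_MM is a long terminal repeat (LTR) that the deposited annotation places in the ERVK class of mouse endogenous retroviruses. A region was taken where the authors listed it in the CHH context with an RLTR31D_MM entry, with no entry for the satellite repeat IMPB_01 and none for an exon or untranslated region, and not on chromosome X or Y. This rule kept 296 of the 368 CHH regions with an RLTR31D_MM entry, of 6943 CHH regions and 9707 regions of any context in the list. Of the 72 left out, 36 carried an IMPB_01 entry, 25 lay on chromosome Y, 13 on chromosome X and 9 had an exon or untranslated-region entry, with some counted under more than 1 of these.

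The list compares 2 groups of single C57BL/6 mouse embryos, collected at E4.5 about 108 h after the fertilised egg had been injected with sperm small RNA at 2 ng/µl. The small RNA came from normal males in the normal group (3 embryos) and from stress-induced depressed males in the depressed group (3 embryos), and all 6 embryos were injected and cultured in the same way. Embryos that received no small RNA were not analysed here, and neither the sex of the embryos nor how many males gave the small RNA is stated in the sources used here. The list gives 1 mean level per group and region, with 0 columns of values per embryo and no read counts. The depth behind a level is therefore unknown, no level has a replicate error, and no difference can be set against the variation from embryo to embryo. Pairs of levels below name the depressed group first and are the authors' group means. The regions entered the list because the groups differed there, so all differences below are descriptions without a test.

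LTRs flank the coding part of a retrovirus when it inserts into the genome and carry its promoter. Recombination between the LTRs of a provirus removes the coding part and leaves a solitary LTR, and older copies are often broken into fragments. Mouse embryos keep many endogenous retroviruses silent through histone H3 lysine 9 methylation and DNA methylation, at a stage when CG methylation of the rest of the genome is low. CHH methylation is laid down by the de novo methyltransferases, is not copied to the new strand at replication, and is scarce in most mammalian cells outside neurons, oocytes and pluripotent cells.

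The RLTR31D_MM regions were nearly all listed with more CHH methylation in the depressed group. Of the 296 regions, 287 (96.96%; 95% exact binomial interval over regions, 94.3 to 98.6%) were higher and 9 were lower with small RNA of depressed males. This interval treats the regions as independent although they share their libraries, so it does not measure variation between embryos. The background was 79.6% higher and 20.4% lower among all 6943 listed CHH regions, and 91.5% higher and 8.49% lower among the 5596 that lie outside exons, untranslated regions and the sex chromosomes, as the RLTR31D_MM regions do. Since the same contrast chose the regions, nothing is read from the gap between these shares. Across the 287 higher regions, the median level was 4.96% for depressed (quartiles 3.72 and 7.64%) and 0.694% for normal (quartiles 0.457 and 1.15%). The median difference was 4.09 percentage points, and the median ratio of the levels was 7.01. Unconverted cytosines are read as methylated and the conversion rates are not given, so ratios to such low levels are uncertain.

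**Figure D1:**
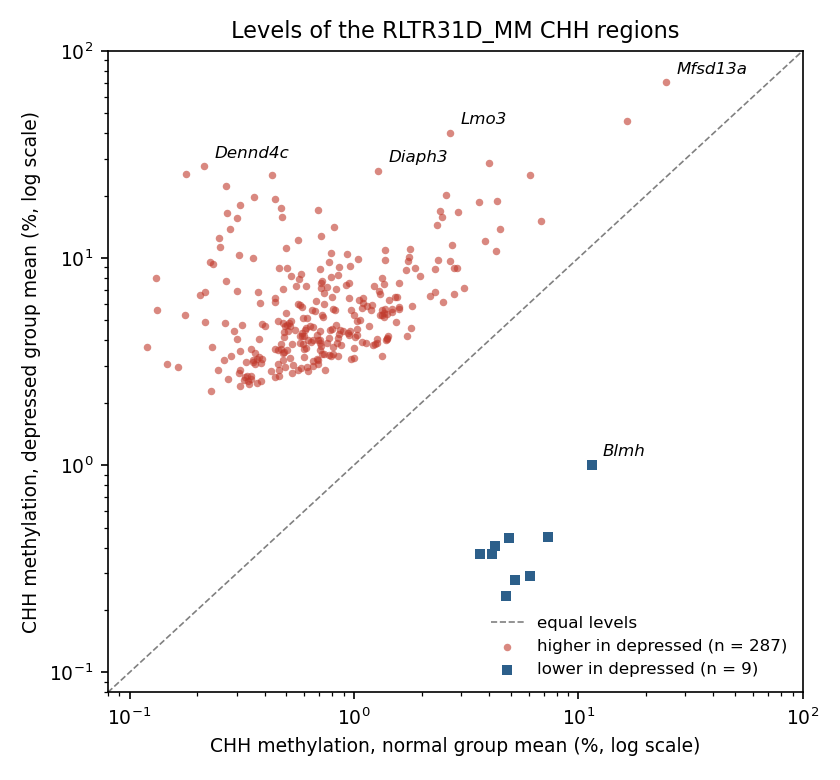
Mean CHH methylation in percent of the normal group (x axis, log scale) and of the depressed group (y axis, log scale) at each of the 296 RLTR31D_MM regions, with the line of equal levels dashed. The 287 higher regions (red circles) form a cloud around 0.694% against 4.96%, the 9 lower regions (blue squares) sit apart below the line, and 5 regions are labelled with the gene they are listed in.

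Most levels were low in both groups. In the depressed group 145 of the 287 higher regions (50.5%) were under 5%, a further 99 lay from 5% to under 10%, 32 from 10% to under 20%, and 11 at 20% or above. In the normal group 200 of the 287 (69.7%) were under 1%, and only 4 reached 5%. The listed CHH regions start at a difference of 2.00 percentage points and an absolute region statistic of 307 (the authors' score, which adds up along a region). The region of the set nearest to the first of these limits, on chromosome 4 (44738287 to 44738490, mm10), stood at 3.37% against 1.34%, 2.03 points apart. A difference of at least 5 points was present in 105 of the higher regions and of at least 10 points in 33.

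The RLTR31D_MM copies in these regions were short fragments that shared the same piece of the repeat. Each repeat entry in the deposited table gives the stretch of the RLTR31D_MM consensus that the copy matches, which the choice of regions did not use. The 296 regions carried 304 such entries, since 7 regions touched more than 1 copy. All but 1 of the entries (303, or 99.7%) covered consensus positions 117 to 164, at least 90% covered positions 102 to 175, and at least 50% covered positions 99 to 178. The entries had a median start at position 99, a median end at position 178 and a median span of 87 bases, while the farthest end was at position 427. Only 1 entry began at position 1, and 277 (91.1%) spanned fewer than 150 bases. In 275 of the 296 regions the region was longer than the repeat entries it touched, so it also took in neighbouring sequence.

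**Figure D2:**
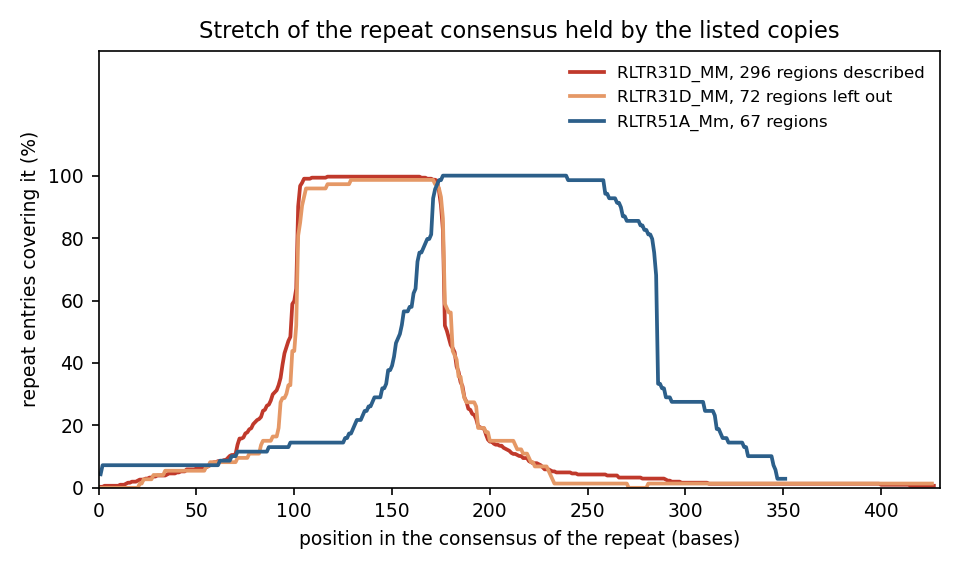
Share of repeat entries (y axis, percent) that cover each position of the repeat's consensus (x axis, bases), for the 296 RLTR31D_MM regions described, the 72 RLTR31D_MM regions left out by the rule and 67 CHH regions with an entry of another LTR, RLTR51A_Mm. In both RLTR31D_MM sets at least 90% of the entries cover positions 104 to 175, and at least 90% of the RLTR51A_Mm entries cover positions 171 to 266 of their own consensus.

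The 72 RLTR31D_MM regions that the rule left out held the same piece, with 98.6% of their 73 entries covering positions 129 to 171 and at least 90% covering 104 to 175. The 9 lower regions did as well, with a median start at position 96 and a median end at position 186. Copies of RLTR51A_Mm, the repeat most often listed together with RLTR31D_MM (15 regions), also shared a piece, all 69 entries covering positions 176 to 239 of that consensus with a median span of 140 bases. All 57 RMER17D entries covered positions 355 to 414 and all 42 RMER17A entries positions 288 to 322, with median spans of 267 and 737.5 bases. The most covered positions were held by 93.4% of RMER17C2, 85.7% of B4A and 76.2% of IMPB_01 entries, with median spans of 511, 162 and 186 bases. Long copies such as those of RMER17A and RMER17C2 overlap readily, so their shared positions are no parallel to the short RLTR31D_MM piece. Copies of the short interspersed element B1_Mus1 in the list were close to its listed extent, with a median span of 145 of 150 positions. Positions 42 to 92 of B1_Mus1 were covered by 99.2% of its entries. The median depressed level was 4.87% for the 277 shorter entries and 4.84% for the 27 of 150 bases or more. How RLTR31D_MM copies outside the list are broken was not analysed here, so whether this piece is more frequent in the list than in the genome was not tested.

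The regions were short and dense in CHH cytosines. Their median length was 168 bp (66 to 4749 bp) and their median number of CHH cytosines was 79 (40 to 255), counted as the table gives it. The median density was 49.0 CHH cytosines per 100 bp, with 229 regions (77.4%) at 40 or more and under 60. The 9 lower RLTR31D_MM regions had a median density of 49.6 per 100 bp, close to the 48.9 of the 287 higher ones. Among CHH regions in other repeats the median was 49.6 in the 2864 higher and 33.5 in the 240 lower regions. That lower pool is mixed, with 23.7 in 56 LINE-1 regions, 39.9 in 39 at IMPB_01 and 31.6 in 10 of B4A. The few lower regions of RMER17C2 (5), RMER17A, RMER17D and RLTR51A_Mm (2 each) had medians of 60.6, 49.8, 49.5 and 45.0. A dense lower region is therefore not particular to RLTR31D_MM. The bases of the regions were not used here, so what gives this density was not tested.

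**Figure D3:**
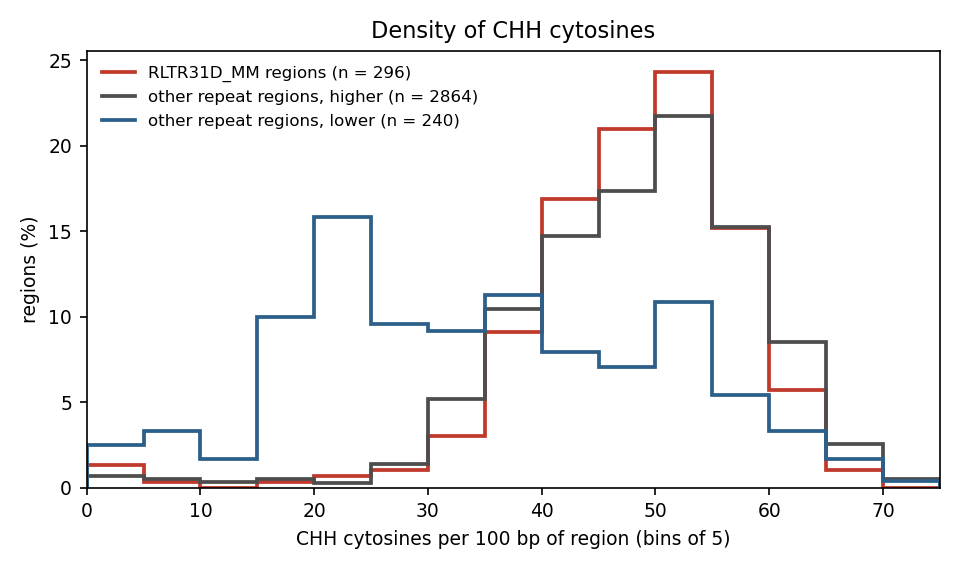
Share of regions (y axis, percent) by the number of CHH cytosines per 100 bp of region (x axis, bins of 5), for the 296 RLTR31D_MM regions, 2864 higher and 240 lower CHH regions of other repeats. The RLTR31D_MM regions and the higher regions of other repeats both peak from 50 to 55 per 100 bp, while the lower regions of other repeats peak from 20 to 25.

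Only 6 regions were over 500 bp long, and their cytosines were sparse. The longest, on chromosome 18 (81570537 to 81575285), held 145 CHH cytosines in 4749 bp, or 3.05 per 100 bp, touched copies of 3 other repeats too, and was at 15.1% against 6.80%. The region on chromosome 18 at 33511191 to 33515018 (3828 bp) was at 4.06% against 1.40%. The intronic region of Arhgap15, a GTPase-activating protein gene, was 2737 bp long and at 4.15% against 1.01%. In such a region the RLTR31D_MM copy is a small part of the sequence measured.

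The strongest region statistic by far lay in an intron of Lmo3, which encodes a LIM-only cofactor of transcription. This region (chromosome 6, 138401024 to 138401318, mm10; 169 CHH cytosines; consensus positions 84 to 226) stood at 40.3% against 2.67%, with a statistic of 3593 in the authors' deposited table. The next, on chromosome 16 (18725798 to 18726160) and listed under repeats alone, had a statistic of 1852 in the authors' deposited table and levels of 12.03% against 3.85%. It was followed by an intron of Adamtsl1, a gene for a secreted matrix protein (chromosome 4, 85717938 to 85718375), which held the most CHH cytosines of the set, 255, at 9.64% against 2.68%. An intron of Arhgef28, a guanine nucleotide exchange factor gene, stood at 6.09% against 1.10%. The top 10 also held the 2 long regions of chromosome 18 and 3 regions listed under repeats alone, on chromosomes 15 (15.5% against 0.302%), 2 (5.95% against 1.21%) and 14 (5.51% against 1.48%). The statistic followed the number of cytosines (Spearman rank correlation over the 287 higher regions 0.791) far more than the difference (0.0714), and these points share their libraries and a score that sums over cytosines.

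The largest difference was listed for Mfsd13a, which encodes a membrane transporter of the major facilitator family. This region (chromosome 19, 46342305 to 46342423; intron of Mfsd13a and promoter of a gene listed without a name; 58 CHH cytosines) was at 70.7% against 24.6%, 46.1 points apart. It lay outside the RefSeq span of Mfsd13a on the same build. A region on chromosome 5 (132721702 to 132721838) was next in level, at 46.1% against 16.4%. These 2 also had the highest levels in the normal group. The other regions at 20% or more in the depressed group included introns of Dennd4c, an exchange factor gene for Rab GTPases (27.8% against 0.214%), and of Diaph3, a formin gene of actin assembly (26.3% against 1.28%). The largest ratio of levels, 142, stood at a region on chromosome 1 (23264765 to 23264852) with 25.5% against 0.179%. This ratio rests on a very low normal level, at unknown depth and conversion rate. Of the 11 regions at 20% or more, 10 were shorter than the median of 168 bp. The shortest region of the set, 66 bp on chromosome 2 (121280602 to 121280667), was among them at 22.3% against 0.269%. The region statistic adds up along a region and the list starts at 307. A short region with few cytosines therefore needs a larger difference to be listed, and nothing is read from this link with length.

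The 9 lower regions were close to unmethylated in the depressed group. Their median there was 0.373% (0.233 to 1.01%), and in the normal group it was 4.91% (3.65 to 11.5%). The strongest by statistic lay on chromosome 19 (19482190 to 19482346) at 0.233% against 4.75%. In introns, Sgcd, the delta-sarcoglycan gene, had 0.279% against 5.21%, Blmh, a cysteine protease gene, 1.01% against 11.5%, and Otulin, a deubiquitinase gene, 0.292% against 6.09%. The Blmh region lay outside the RefSeq span of that gene. The other 5 lay on chromosomes 11, 7, 9, 15 and 2 under repeats alone, with normal levels from 3.65 to 7.33%. The median difference of the 9 was -4.52 points. The 240 lower CHH regions in other repeats had medians of 0.595% and 13.98% and a median difference of -11.04 points. That pool is mixed, with -14.4 points in the 56 lower LINE-1 regions and -7.21 in the 39 at IMPB_01. The few lower regions of RMER17C2 (5), RMER17D, RMER17A and RLTR51A_Mm (2 each) had medians from -6.91 to -6.18 points. A small difference is therefore not read as particular to RLTR31D_MM.

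Introns held 115 of the 296 regions (38.9%), against 38.5% of all 3426 CHH regions with a repeat entry and the same exclusions. Promoters were listed for 10 (3.38%), against 4.52% of those 3426 regions. Repeat entries alone were listed for 178 (60.1%), shores of CpG islands for 5 and CpG islands for 0. The background shares of these last kinds are not given here, so nothing is read from their counts. Intronic regions had medians of 4.70% against 0.659%, and regions outside introns 4.96% against 0.735%. The regions were listed with 100 named genes, of which 97 matched a RefSeq symbol or synonym and 87 held the region inside their RefSeq span. These genes were long, with a median span of 236 kb for the 94 matched genes with an intronic region, against 134 kb for 868 genes with another intronic CHH repeat region and 17.1 kb for all 21900 protein-coding genes. The counts of genes were not adjusted for gene length.

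Only 4 genes carried 2 RLTR31D_MM regions. In Nrg1, the gene of the ErbB receptor ligand neuregulin, the regions (chromosome 8, 32185836 to 32186068 and 32386648 to 32386907) were at 3.02% against 0.659% and at 14.1% against 0.813%. Galntl6, of the family that starts mucin-type glycans, had 4.18% against 0.601% and 2.97% against 0.491%. Arpp21, a phosphoprotein gene of neurons, had 4.24% against 0.946% and 2.97% against 0.620%. Sgcd was the only gene of the 4 with both directions, as its second region (chromosome 11, 47155304 to 47155646) was at 4.01% against 0.621%.

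The following host genes were picked after their values had been seen, as genes with known roles in neurons. Whether such genes are more frequent among the hosts than among other genes of their length was not tested. Among receptors, Grm7 (metabotropic glutamate receptor) was at 12.5% against 0.251%, Gabbr2 (GABA-B receptor subunit) at 7.12% against 0.711%, Grid1 at 4.18% against 1.41%, and the opioid receptor gene Oprm1 at 3.35% against 0.792%. Among ion channels, the ryanodine receptor gene Ryr3 was at 5.29% against 1.004%, the L-type calcium channel gene Cacna1c at 4.52% against 1.03%, and the acid-sensing channel gene Asic2 at 4.11% against 0.848%. Genes of the presynaptic terminal included Cplx1 (complexin, 4.10% against 1.41%), Syn3 (a synapsin, 3.88% against 1.27%) and Rims1 (an active zone scaffold, 3.03% against 0.533%). Genes of cell contact and axon guidance included Epha6 (8.35% against 0.580%), Pcdh15 (7.10% against 0.829%), Robo2 (3.06% against 0.364%), Cntnap2 (2.88% against 0.465%) and Lingo2 (2.56% against 0.337%). All 15 lay in introns and were higher in the depressed group, as were 112 of the 115 intronic regions.

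The 10 promoter regions had medians of 5.17% against 0.633%, and all were higher in the depressed group, as were 287 of all 296 regions. A named gene stood in the promoter entry of 4 of them. Mboat1, a lysophospholipid acyltransferase gene (chromosome 13, 30135771 to 30136013), was at 3.23% against 0.692%, with the region 477 bp from the RefSeq start of the gene. The olfactory receptor gene Olfr125 (chromosome 17, 37834329 to 37834456) was at 10.9% against 1.37%, with the region 455 bp from its start. Exd2, an exonuclease gene, was at 3.63% against 0.444%, and Mrpl33, a mitochondrial ribosomal protein gene, at 3.67% against 0.608%. The Mrpl33 region lay outside the RefSeq span of that gene and 15886 bp from its RefSeq start. Regions of the other promoter entries also lay in introns of Soga3 (8.80% against 0.705%), of H2-Q4, a class I histocompatibility gene (4.89% against 0.218%), and of Nrg1 and Mfsd13a as given above, and regions on chromosome 7 (39459459 to 39459537) and chromosome 1 (88876119 to 88876255) were at 25.04% against 0.430% and 5.44% against 0.498%. An intronic region of Pdgfra, the platelet-derived growth factor receptor that marks primitive endoderm in the blastocyst, lay in the shore of a CpG island at 4.39% against 0.487%.

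The regions were spread over all 19 autosomes, with 4 on chromosome 19 to 27 on chromosome 5, and 1 on a scaffold. With only 9 lower regions in all, higher regions outnumbered lower ones on each of the 19 autosomes, which adds little to the total. The 9 lower ones lay on 6 of the autosomes, 3 on chromosome 11. Among CHH regions with a repeat entry, RLTR31D_MM regions made up 8.64% over the autosomes, from 4.76% on chromosome 15 to 12.7% on chromosome 16. The median level of the depressed group ranged from 3.34% on chromosome 19 to 5.92% on chromosome 14. The nearest neighbours were 9.03 kb apart and the median gap was 4926 kb.

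**Figure D4:**
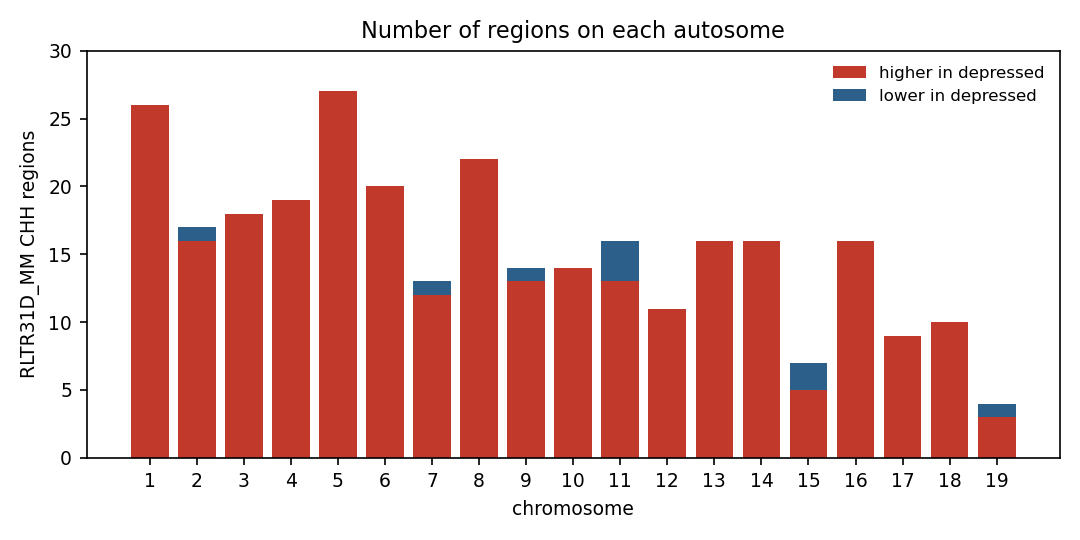
Number of RLTR31D_MM CHH regions (y axis) on each of the 19 autosomes (x axis), with regions higher in the depressed group in red and lower ones in blue. Counts run from 4 on chromosome 19 to 27 on chromosome 5, and lower regions appear on 6 chromosomes.

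No RLTR31D_MM region overlapped a listed CG or CHG region (0 of 296). The same overlap was not counted for the other listed CHH regions, so nothing is read from this count. In the whole list only 2 CG regions and 1 CHG region touched an RLTR31D_MM copy. Both CG regions were lower in the depressed group, at 3.77% against 49.0% on chromosome 10 (8131409 to 8135840) and at 1.25% against 77.9% on chromosome 9 (43322893 to 43327835, listed with Trim29). They were 4432 and 4943 bp long with 15 and 4 CG sites, so the RLTR31D_MM copy was a small part of each. The CHG region (chromosome 7, 79818256 to 79818414, 14 CHG sites) was higher in the depressed group, at 22.7% against 0.750%. The shares of all listed CG and CHG regions that were higher or lower are not given here. Nothing about RLTR31D_MM is therefore read from these directions.

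Set beside other classes of CHH regions with the same exclusions, the RLTR31D_MM regions had similar levels. The share of higher regions was 92.6% of 1037 regions in other LTRs, 93.99% of 649 with an IMPB_01 entry, 91.6% of 665 in LINE-1 repeats (a region touching several classes counts in each, and LINE-1 and LTR classes leave out IMPB_01) and 89.6% of 2170 without a repeat entry. The median difference of the higher regions, 4.09 points in RLTR31D_MM, was 3.94 in other LTRs, 3.93 at IMPB_01, 3.61 in LINE-1 and 3.71 without a repeat. The quartiles of these classes overlapped widely. None of these differences was tested, since the regions were chosen by this contrast and are not replicates.

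**Figure D5:**
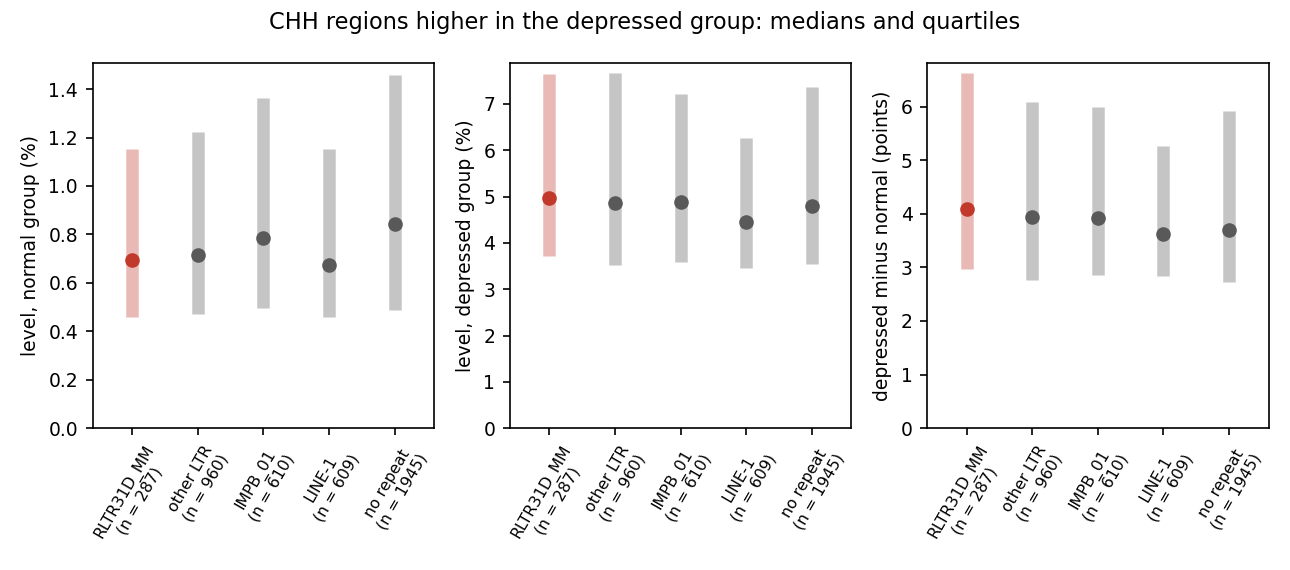
Median (point) and quartiles (bar) of the level in the normal group, the level in the depressed group (both in percent) and their difference (percentage points), for CHH regions higher in the depressed group. The 287 RLTR31D_MM regions have a median difference of 4.09 points, and the other 4 classes lie between 3.61 and 3.94 with overlapping bars.

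Within retroviral names, relatives of the RLTR31 name other than RLTR31D_MM were listed in only 8 CHH regions, all higher, at medians of 4.67% against 1.04%. Intracisternal A particles, which are among the most active mouse retroviruses and strongly methylated at CG, were listed in 5 regions and ETn and MusD elements in 5, all higher. MERV-L, the retrovirus expressed at the 2-cell stage, had 14 higher of 16 regions, MMERVK and its LTRs 10 of 11, VL30 1 of 1 and the older MaLR group 241 of 266. Outside the retroviruses, B1 and B2 elements had 469 higher of 494. RLTR51A_Mm, whose listed copies are also fragments, had 65 higher of 67 and a median difference of 5.78 points in the higher ones. The counts are not set against the number of copies of each family in the genome.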

How the data were processed

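Single-embryo whole-genome bisulfite libraries were made by random priming after conversion, per the labels' protocols, in which an unconverted cytosine is read as methylated. The submitters' processing notes name Trim Galore 0.3.3, Bismark, SAMtools and the build mm10. Not given in the sources used here are the region caller with its thresholds and coverage filter, and each library's conversion rate. The authors deposited 1 table of 18732 annotation entries, which were collapsed here to 9707 distinct regions by chromosome, start, end and context. Per the file headers, it holds for each group the mean methylation as a fraction, multiplied to percent here, the difference of the 2 fractions, and a score per region, called the region statistic here. The difference equalled depressed minus normal within 1.11e-15 in all regions, and the statistic had the opposite sign in 2.

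The regions and the repeat families compared were chosen with earlier results of these data known. Regions named in full were the 10 strongest by statistic, extremes of difference, length and cytosine number, promoter regions, lower regions, and genes with 2 or more regions; regions at 20% or more, shores, regions over 500 bp, the extreme ratio and the neural genes were added after their values had been seen. Some regions that meet these rules are not reported here. No test between groups was run. Intervals are exact binomial over regions, which share their libraries, and do not measure variation between embryos. The RefSeq table for GRCm38 gave gene spans and start sites. The search for regions was tested on simulated data. Python 3.11.15, pandas 2.3.3 and scipy 1.17.1 were used.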

Additional observations from a re-analysis of the deposited data

How the results depend on the processing

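Each of the 6 summary values was recomputed under 10 alternatives. The 2 that have a direction kept it, with 96.4 to 100% of regions higher and a median difference of 3.47 to 7.91 points. All alternatives draw on the same list, chosen by this contrast, so the direction could hardly have changed and its keeping is no support. Of all 60 values, 44 stayed within the interval over regions of the reported value (for counts, within 1.5 times). These intervals serve only as a yardstick of size, since the regions are not replicates. With a difference of at least 5 points, 108 regions and 37 genes were left, with medians of 8.99% and 0.791% and a difference of 7.91 points. With at least the median of 83 cytosines, 133 regions and 49 genes were left, 100% of them higher, with medians of 4.22% and 0.775% and a difference of 3.47 points. With at least the median absolute statistic of 495, 125 regions and 47 genes were left, and the median of the normal group was 0.803%. With no other repeat name, 184 regions and 65 genes were left. These alternatives keep fewer regions by construction. Keeping exon, IMPB_01 or sex-chromosome regions, counting neighbours within 10 kb once, using primary autosomes, or (added after the data were seen) leaving out regions over 500 bp moved no value beyond its interval. No paired analysis was possible because the table has no values per embryo, and for the same reason no embryo could be left out. The depth behind each level is unknown.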

Other observations

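The RLTR31D_MM CHH regions on the sex chromosomes were all higher in the depressed group, as were most CHH regions listed there (161 of 162 on chromosome Y and 127 of 143 on chromosome X). On chromosome Y there were 25, with a median level of 7.00% against 1.08% in the normal group. On chromosome X there were 13, at 5.03% against 0.623%. These counts include regions with an IMPB_01, exon or untranslated-region entry. Of the 9 regions with an exon or untranslated-region entry, 6 were higher and 3 lower, and their levels in the normal group ran from 0.129 to 72.3%. Of all 6943 listed CHH regions 79.6% were higher, against 91.5% of the 5596 outside exons, untranslated regions and the sex chromosomes. The share among all CHH regions with an exon or untranslated-region entry is not given here, so nothing is read from the 6 and 3.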
